A study of Homo sapiens with 16 samples.

Results

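BDNF, the neurotrophins and neurotrophic ligands NTF3 and GDNF, the receptors NTRK2, NTRK3 and NGFR, the sorting receptor SORT1 and the secreted peptide precursor VGF were followed across HMC3 cells treated with estradiol, ketamine and hydroxynorketamine. These 8 genes, called the members below, were picked by name from a count table of 25370 genes. Of the 8, 6 had enough counts to be tested, and NTRK2 and NTRK3 did not. All 7 treatments were compared with the same 2 vehicle libraries, so their calls are not independent of each other. Against vehicle, GDNF fell under 5 of the 7 treatments and SORT1 under 6. NTF3 and NGFR each rose under 4, BDNF rose under 1 and fell under 4, and VGF rose under 2. After a correction for GC content and gene length, the rises of NTF3 and the falls of GDNF kept their calls, as did the rise of BDNF, 2 of its 4 falls and 3 of the 6 falls of SORT1. BDNF was then also called higher and GDNF lower with E2+ketamine and SORT1 higher with E2+2S6S-HNK, and none of the rises of NGFR and VGF remained. In the counts as deposited, several calls rest on single libraries. Among them are the BDNF rise, the NTF3 rises with ketamine and E2+2S6S-HNK and the GDNF fall with 2R6R-HNK.

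Neurotrophins are secreted growth factors that are made as precursors, the proneurotrophins, and cut to mature forms. Mature BDNF acts mainly through the receptor tyrosine kinase TrkB, the product of NTRK2, and mature neurotrophin-3 through TrkC, the product of NTRK3, while proneurotrophins bind p75NTR, the product of NGFR, together with sortilin, the product of SORT1. In the brain these factors support neurons and synapses, and BDNF in particular is much studied in relation to antidepressant drugs.

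HMC3 is an established human cell line that is sold and labelled as microglial. Cells were kept in charcoal-stripped serum and then without serum before about a day of exposure in medium free of serum and phenol red. The 8 conditions, with 2 libraries each, were vehicle, estradiol (E2) at 0.1 nM, ketamine at 400 nM, either of the HNKs 2R6R-HNK and 2S6S-HNK at that dose, and each of the 3 drugs at 400 nM together with E2 at 0.1 nM. HNKs are hydroxynorketamines, metabolites of ketamine, and the 2R6R and 2S6S forms used here are mirror images of each other. The comparisons ask whether each treatment changed the genes against vehicle, whether the 3 compounds differed from each other, and whether E2 altered the effect of each compound. All conditions come from 1 cell line, and nothing in the labels tells if a condition's 2 libraries are separate cultures, so the p-values below measure the spread between these libraries, which may be technical.

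Each library held 55300614 to 81646165 counts. Of the 12 microglial markers listed, 9 had at most 10 counts in every library, among them AIF1, CX3CR1, P2RY12, TMEM119, ITGAM, PTPRC and TYROBP, and C1QA was at 0 in all 16. CD68, a lysosomal protein of phagocytes, was the only microglial marker with a mean of at least 1 RPKM (CPM per kilobase of exon, CPM being counts scaled to a common library size), at 8.03 to 10.8 RPKM. TREM2 and CSF1R were low but above 3 counts in every library, at up to 1.19 and 0.202 RPKM. Most of the defining microglial markers were therefore at or near 0 in these cells. Of the fibroblast and pericyte markers 4 of 8 had a mean of at least 1 RPKM, with COL1A1 at 398 to 593 RPKM, while COL3A1, DCN and LUM had at most 12 counts in any library. The 12 microglial markers summed to 20.5 CPM in vehicle and to 18.9 to 25.0 CPM over all conditions, and the fibroblast and pericyte markers to 4755 and 4262 to 6466 CPM. COL1A1 made up most of that sum, with 4044 CPM in vehicle, and the listed genes moved in different directions, with PDGFRB called higher in all 7 treatments and RGS5 lower in 6. Of 8 neuronal markers only TUBB3, a tubulin, had a mean of at least 1 RPKM, at 9.66 to 18.8 RPKM, while STMN2 and ELAVL4 were at 0 in all 16 libraries, and the list summed to 109 CPM in vehicle and to 75.9 to 143 CPM over all conditions. Astrocyte markers summed to at most 11.0 CPM and those of oligodendrocytes and Schwann cells to at most 5.91 CPM. All libraries are of 1 cell line, so the lists describe expression in HMC3 cells. Whether other cell types were present was not tested. In bulk RNA, fewer cells of a kind and less RNA per cell cannot be told apart.

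Per length of exon, SORT1 was the most abundant of the 8 genes, with a mean of 15.9 RPKM over the 16 libraries. BDNF followed at 3.51 RPKM and GDNF at 2.90 RPKM. VGF averaged 0.432 RPKM, NTF3 0.345 RPKM and NGFR 0.345 RPKM. The Trk receptor genes were lowest, with means of 0.00110 RPKM for NTRK3 and 0.000449 RPKM for NTRK2. The table of counts thus held appreciable RNA for the ligands BDNF and GDNF and for the sorting receptor, little for p75NTR, and almost none for TrkB and TrkC.

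**Figure D1:**
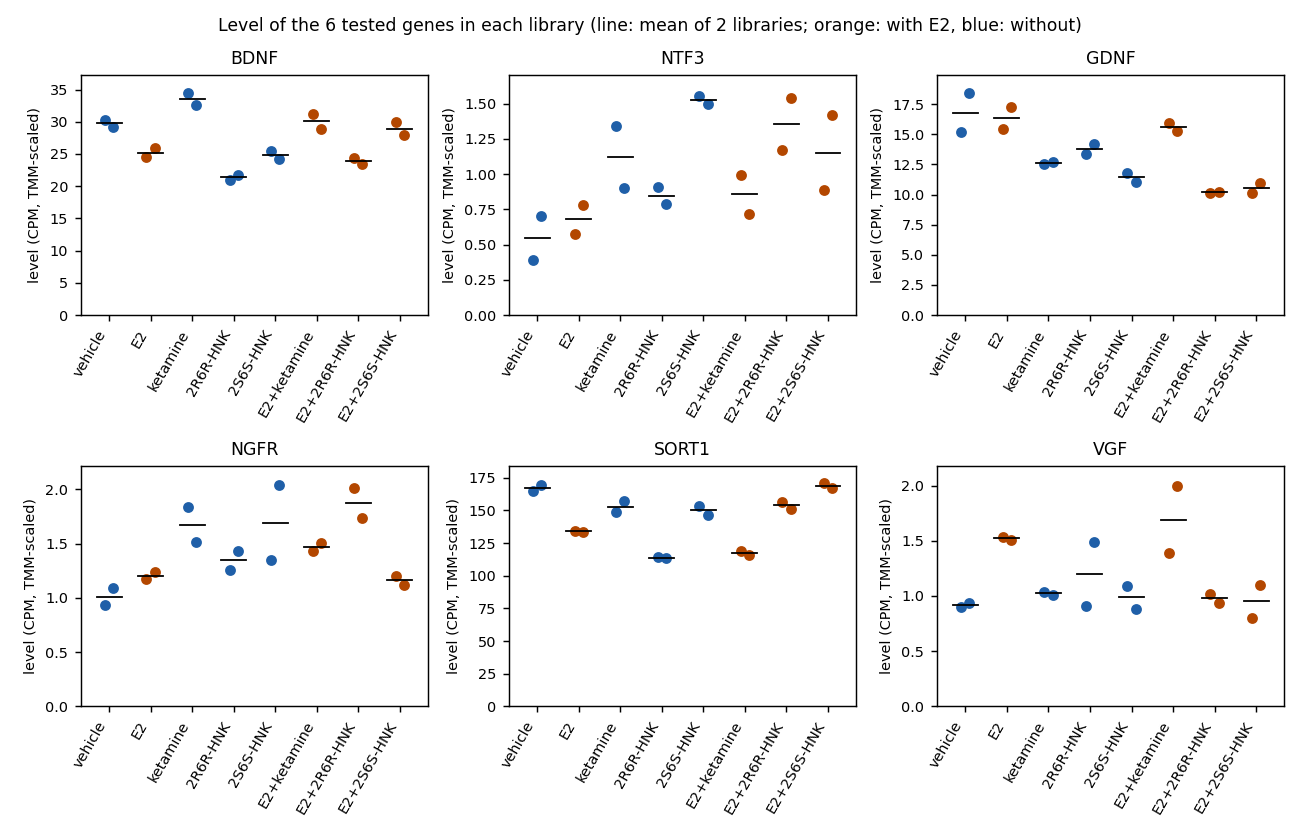
Level in CPM after TMM scaling (vertical axes, from 0) of the 6 tested genes in each of the 16 libraries by condition, with points for libraries and lines for means of 2. Ketamine has the highest BDNF points, from 32.5 to 34.5 CPM, vehicle and E2 the highest GDNF means, and 2R6R-HNK and E2+ketamine the lowest SORT1 points.

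Across all tested genes, many calls were made in every comparison, so the members were read against that background. Calls were made with edgeR's quasi-likelihood test where the adjusted p was under 0.05. With E2 alone, 3 of the 6 members were called, 1 higher and 2 lower, where 29.9% of the 16004 tested genes were called higher and 32.7% lower. Ketamine changed 5 members, 3 higher and 2 lower, against 26.8% of genes higher and 32.5% lower. Under 2R6R-HNK 3 members were lower and none higher, with 31.7% of genes higher and 34.9% lower, and under 2S6S-HNK 2 were higher and 3 lower, with 32.1% and 35.8%. E2+ketamine gave 2 higher and 1 lower beside 34.3% and 37.4% of genes. E2+2R6R-HNK gave 2 higher and 3 lower beside 33.4% and 36.3%, and E2+2S6S-HNK 1 higher and 1 lower beside 24.0% and 35.7%. With 6 genes, these counts do not set the members apart from the other genes, and the size and direction for each gene carry the description. Only NTF3 reached a log2 fold change of 1 among members called, the fold limit the study used, and it did so under 4 treatments, ketamine, 2S6S-HNK, E2+2R6R-HNK and E2+2S6S-HNK. Of all tested genes, 3.56%, 9.08%, 11.5% and 5.85% were called with a fold change of that size or more, in either direction, in those comparisons.

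Base composition moved with the treatments over all genes. The 137 tested genes whose exon GC content lay within 2 percentage points of that of VGF, 69.8%, had a median log2 fold change between 0.39 and 0.87 in the 7 treatments against vehicle. The 2270 genes within 2 points of BDNF, 46.2%, had medians between -0.31 and -0.13. Each result was therefore also computed after removing the trend of every library with GC content and exon length, and where that changed a member's call it is said below. A treatment effect that follows base composition and a library effect that does so cannot be told apart in this design.

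BDNF, the brain-derived neurotrophic factor (ENSG00000176697), lies on the minus strand of chromosome 11, chr11:27676440-27743605 in GRCh37. Its count sums transcripts from several promoters, and 988 bases of its exons overlap exons of BDNF-AS on the other strand. The strandedness of the counting is not given in the sources used here, so reads within the shared bases cannot be told apart. BDNF-AS had its own counts, from 14 in E2+ketamine replicate 2 to 63 in ketamine replicate 1, beside 1247 to 2958 a library for BDNF. The vehicle libraries had 30.2 and 29.2 CPM, the ketamine libraries 34.5 and 32.5 CPM, and the E2 libraries 24.5 and 25.9 CPM. With 2R6R-HNK BDNF was at 21.0 and 21.8 CPM, and with 2S6S-HNK at 25.4 and 24.2 CPM. Both ketamine libraries lay above both vehicle libraries, and all libraries of E2 and of the 2 HNKs given without E2 lay below. E2+ketamine, at 31.2 and 28.9 CPM, and E2+2S6S-HNK, at 29.9 and 27.9 CPM, overlapped vehicle. E2+2R6R-HNK, at 24.3 and 23.5 CPM, lay below it.

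Ketamine raised BDNF by a log2 fold change of 0.17 (SE 0.0551, adjusted p = 0.00566), which is 1.13-fold. 2R6R-HNK lowered it most, by a log2 fold change of -0.48 (SE 0.0582, adjusted p = 3.88e-10). The change was -0.24 with E2 (SE 0.0578, adjusted p = 0.000282), -0.26 with 2S6S-HNK (SE 0.0583, adjusted p = 8.55e-05) and -0.31 with E2+2R6R-HNK (SE 0.0571, adjusted p = 3.09e-06). E2+ketamine gave 0.02 (SE 0.0570, adjusted p = 0.826), with a 95% interval from -0.10 to 0.13, and E2+2S6S-HNK gave -0.04 (SE 0.0562, adjusted p = 0.589), with an interval from -0.15 to 0.08. Without ketamine replicate 1 the ketamine change was 0.13 (adjusted p = 0.110), and without vehicle replicate 2 it was 0.15 (adjusted p = 0.0668), so that call rests on single libraries. After GC and length correction the ketamine change was 0.29 (adjusted p = 3.37e-06) and that of E2+ketamine 0.32 (adjusted p = 1.15e-06), while those of E2, -0.07, and 2S6S-HNK, -0.08, were no longer called. 2R6R-HNK kept its call at -0.25 and E2+2R6R-HNK at -0.15. The study reports more BDNF after ketamine or either HNK, by RNA-seq and Western blot, whereas both HNKs were below vehicle in these counts.

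RefSeq (GRCh38.p14, whereas the counts used hg19) gives 5 promoter windows for BDNF, each from 250 bases before to 50 after a transcription start. The one shown is the only member window that holds the letters TTCNNNGAA, the core of a STAT binding motif, and is printed because the study is concerned with STAT3. It lies on the minus strand at chr11:27721981-27722280, is written 5′ to 3′ with the matched letters in capitals, and the match begins 146 bases upstream of the start.
BDNF: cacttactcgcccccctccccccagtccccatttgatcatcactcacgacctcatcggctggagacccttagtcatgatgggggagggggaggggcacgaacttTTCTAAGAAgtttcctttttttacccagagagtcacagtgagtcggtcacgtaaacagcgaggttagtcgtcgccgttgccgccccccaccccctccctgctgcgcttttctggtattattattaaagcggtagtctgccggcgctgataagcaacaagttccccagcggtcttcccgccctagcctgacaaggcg
The motif reads the same on both strands, and 7.66% of the 35116 windows of all genes hold it. The estrogen response element, GGTCA and TGACC with any 3 bases between them, which is likewise its own reverse complement, was in none of the 19 member windows, which belong to the 7 members other than NGFR, and in 0.0570% of all windows. A match or its absence in these windows is a description of letters and says nothing of binding in HMC3 cells.

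NTF3 encodes neurotrophin-3, the preferred ligand of TrkC (ENSG00000185652, plus strand, chr12:5541274-5630702 in GRCh37). It was rare, with 24 to 115 counts a library. Vehicle had 0.392 and 0.705 CPM and E2 0.577 and 0.780 CPM, which overlapped. Ketamine gave 1.34 and 0.904 CPM and 2S6S-HNK 1.55 and 1.49 CPM. 2R6R-HNK gave 0.907 and 0.787 CPM and E2+ketamine 0.996 and 0.716 CPM. All 4 of these conditions lay above both vehicle libraries, as did E2+2R6R-HNK, at 1.17 and 1.54 CPM, and E2+2S6S-HNK, at 0.883 and 1.42 CPM.

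NTF3 had the largest fold changes of the members against vehicle in the 4 treatments where it was called. It rose by a log2 fold change of 1.47 with 2S6S-HNK (SE 0.307, adjusted p = 3.39e-05), or 2.77-fold, and by 1.30 with E2+2R6R-HNK (SE 0.304, adjusted p = 0.000172). It rose by 1.05 with E2+2S6S-HNK (SE 0.310, adjusted p = 0.00299) and by 1.04 with ketamine (SE 0.305, adjusted p = 0.00294). The values of 2R6R-HNK, 0.64 (adjusted p = 0.0788), E2+ketamine, 0.65 (adjusted p = 0.0745), and E2, 0.31 (adjusted p = 0.454), were not called. The vehicle libraries differ widely for so rare a gene. The ketamine change was 0.72 without ketamine replicate 1 and 0.67 without vehicle replicate 1, and the E2+2S6S-HNK change was 0.69 without its replicate 2 and 0.69 without vehicle replicate 1, none of them called. Conversely, without vehicle replicate 2 the changes of 2R6R-HNK, 1.11, and E2+ketamine, 1.12, were called, as was the E2+ketamine change without its own replicate 2, at 0.86. The 4 rises kept their calls after GC and length correction, at 0.99 to 1.37.

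GDNF, the glial cell line-derived neurotrophic factor, is not a neurotrophin by sequence and signals through GFRα co-receptors and a receptor tyrosine kinase of its own. The gene (ENSG00000168621) lies on the minus strand at chr5:37812779-37840143 in GRCh37, and 681 bases of its exons overlap GDNF-AS1 on the other strand. Vehicle had 15.2 and 18.4 CPM, E2 15.4 and 17.2 CPM and E2+ketamine 15.9 and 15.3 CPM. Ketamine had 12.5 and 12.7 CPM, 2R6R-HNK 13.4 and 14.2 CPM and 2S6S-HNK 11.8 and 11.1 CPM. E2+2R6R-HNK and E2+2S6S-HNK were lowest, at 10.1 and 10.2 CPM and at 10.2 and 11.0 CPM. E2 and E2+ketamine overlapped vehicle, and the other 5 conditions lay wholly below it.

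GDNF fell by 0.72 on the log2 scale with E2+2R6R-HNK (SE 0.0808, adjusted p = 3.35e-11) and by 0.67 with E2+2S6S-HNK (SE 0.0806, adjusted p = 4.53e-10). It fell by 0.56 with 2S6S-HNK (SE 0.0820, adjusted p = 4.59e-08), by 0.42 with ketamine (SE 0.0781, adjusted p = 8.25e-06) and by 0.28 with 2R6R-HNK (SE 0.0791, adjusted p = 0.00141). E2 gave -0.04 (SE 0.0785, adjusted p = 0.678) and E2+ketamine -0.11 (SE 0.0790, adjusted p = 0.228). All 5 falls kept their calls after GC and length correction, at -0.85 to -0.40, and E2+ketamine was then called as well, at -0.25 (adjusted p = 0.00507). Without vehicle replicate 2, the higher of the vehicle pair, the 2R6R-HNK change was -0.14 (adjusted p = 0.199), and without vehicle replicate 1 the E2+ketamine change was -0.24 (adjusted p = 0.0165).

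**Figure D2:**
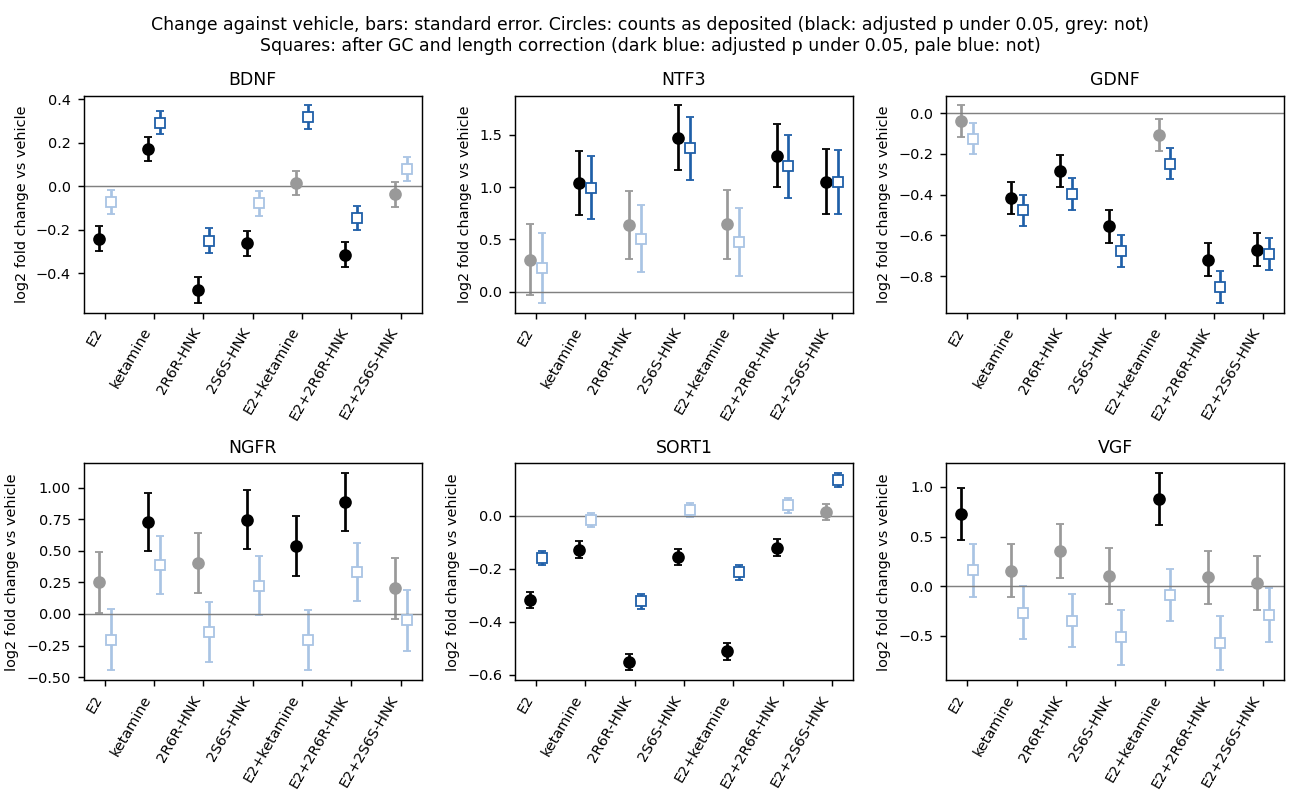
Log2 fold change against vehicle (vertical axes) of the 6 tested genes under the 7 treatments, with bars for the standard error, from the counts as deposited (circles) and after GC and length correction (squares), in paler shades where the adjusted p was 0.05 or more. GDNF lies below 0 in all 7 treatments under both settings and NTF3 above 0, whereas BDNF, NGFR, SORT1 and VGF cross 0 in some treatments after the correction.

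NTRK2 encodes TrkB (ENSG00000148053, plus strand, chr9:87283290-87710666) and NTRK3 encodes TrkC (ENSG00000140538, minus strand, chr15:88402982-88800022, both GRCh37). NTRK2 had 17 counts in all 16 libraries together, with 10 libraries at 0 and at most 6 counts in one, the ketamine replicate 2 library. Both libraries of 2S6S-HNK and of E2+2S6S-HNK were at 0, and the libraries above 0 were spread over the other 6 conditions. NTRK3 had 33 counts in all, with 7 libraries at 0 and at most 10 counts in E2+2R6R-HNK replicate 1, whose partner library was at 0. A count of 0 allows up to 3 counts, which is 0.0350 to 0.0547 CPM in these libraries. Neither gene had enough counts to be tested, so differences between conditions were not assessed at this depth. Low counts in this table were more often even than odd, with 65.8% even among counts of 1 to 9 over all genes and 49.9% among those of 500 or more. Of the counts above 0, 5 of 6 for NTRK2 and 8 of 9 for NTRK3 were even. Whether both reads of a pair were counted was not tested, and limits from counts cover counting error only.

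NGFR encodes p75NTR, the shared receptor of all neurotrophins and their precursors (ENSG00000064300, plus strand, chr17:47572655-47592370 in GRCh37). Its exons overlap NGFR-AS1 by 202 bases and ENSG00000279036 by 924 bases, both on the other strand. Vehicle was lowest, at 0.932 and 1.09 CPM. E2+2R6R-HNK was highest, at 2.01 and 1.73 CPM, with ketamine at 1.83 and 1.52 CPM and 2S6S-HNK at 1.35 and 2.04 CPM. E2+ketamine had 1.44 and 1.50 CPM, 2R6R-HNK 1.26 and 1.43 CPM, E2 1.17 and 1.24 CPM and E2+2S6S-HNK 1.20 and 1.12 CPM. Every treated library lay above both vehicle libraries.

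NGFR rose by a log2 fold change of 0.89 with E2+2R6R-HNK (SE 0.227, adjusted p = 0.000517), 0.75 with 2S6S-HNK (SE 0.235, adjusted p = 0.00431), 0.73 with ketamine (SE 0.226, adjusted p = 0.00470) and 0.54 with E2+ketamine (SE 0.238, adjusted p = 0.0400). The values of 2R6R-HNK, 0.41 (adjusted p = 0.131), E2, 0.25 (adjusted p = 0.386), and E2+2S6S-HNK, 0.20 (adjusted p = 0.486), were not called. NGFR has an exon GC content of 63.6%, and the 1096 tested genes within 2 points of it had medians of 0.23 to 0.72. After GC and length correction none of the 4 calls remained, with values of 0.33, 0.23, 0.39 and -0.21 and adjusted p between 0.163 and 0.497. The ketamine call was lost without ketamine replicate 1 (0.59) or vehicle replicate 1 (0.62), and that of 2S6S-HNK without its replicate 2 (0.42). The E2+ketamine call was lost without its replicate 1 (0.57), its replicate 2 (0.50) or vehicle replicate 1 (0.43).

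SORT1 encodes sortilin, which binds proneurotrophins with p75NTR at the cell surface and also steers BDNF into the regulated secretory pathway (ENSG00000134243, minus strand, chr1:109852190-109940540 in GRCh37). With 6473 to 13918 counts a library it was the member measured most precisely. Vehicle had 165 and 169 CPM, E2 134 and 134 CPM, ketamine 149 and 157 CPM and 2S6S-HNK 154 and 146 CPM. 2R6R-HNK was lowest, at 115 and 113 CPM, with E2+ketamine at 119 and 116 CPM. E2+2R6R-HNK had 157 and 151 CPM and E2+2S6S-HNK 171 and 167 CPM. Only E2+2S6S-HNK overlapped vehicle, and the libraries of 2R6R-HNK lay below those of every other condition.

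SORT1 fell by 0.55 on the log2 scale with 2R6R-HNK (SE 0.0318, adjusted p = 5.00e-21), by 0.51 with E2+ketamine (SE 0.0320, adjusted p = 5.16e-20) and by 0.32 with E2 (SE 0.0316, adjusted p = 1.46e-12). These 3 falls kept their calls after GC and length correction, at -0.32, -0.21 and -0.16. The smaller falls did not, namely 0.16 with 2S6S-HNK (adjusted p = 2.20e-05), 0.13 with ketamine (adjusted p = 0.000380) and 0.12 with E2+2R6R-HNK (adjusted p = 0.000655), which became 0.02, -0.02 and 0.04. E2+2S6S-HNK gave 0.02 (adjusted p = 0.694), with a 95% interval from -0.05 to 0.08. It was called higher after the correction, at 0.13 (adjusted p = 1.31e-05). Upper-quartile scaling in place of TMM also ended the calls of ketamine and E2+2R6R-HNK, both at -0.04. With that scaling E2+2S6S-HNK was called higher, at 0.12 (adjusted p = 0.000742).

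VGF is a secreted peptide precursor of dense-core granules whose gene neurotrophins induce in neurons (ENSG00000128564, minus strand, chr7:100805790-100808850 in GRCh37). It had 52 to 117 counts a library. The vehicle libraries had 0.899 and 0.940 CPM, those of E2 1.54 and 1.51 CPM and those of E2+ketamine 1.39 and 2.00 CPM. Ketamine gave 1.04 and 1.01 CPM, 2R6R-HNK 0.907 and 1.49 CPM and 2S6S-HNK 1.09 and 0.882 CPM. E2+2R6R-HNK, at 1.02 and 0.936 CPM, and E2+2S6S-HNK, at 0.797 and 1.10 CPM, overlapped vehicle, as did the 2 HNKs without E2. E2, ketamine and E2+ketamine lay above it.

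VGF rose by a log2 fold change of 0.88 with E2+ketamine (SE 0.260, adjusted p = 0.00239) and 0.73 with E2 (SE 0.262, adjusted p = 0.0137). In the other 5 treatments the values were 0.03 to 0.36, and after GC and length correction they were -0.58 to -0.27, with none called under either setting. The genes of similar GC content had a median of 0.87 with E2+ketamine and 0.53 with E2, and after GC and length correction VGF stood at -0.09 (adjusted p = 0.815) and 0.16 (adjusted p = 0.689). The E2 call was also lost without E2 replicate 1 (0.71) or vehicle replicate 1 (0.70), and the E2+ketamine call without its replicate 2 (0.59). Without its replicate 1, 2R6R-HNK had a VGF value of 0.69 that was called (adjusted p = 0.0479).

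The single VGF window in RefSeq (GRCh38.p14, minus strand, chr7:101165520-101165819) is shown because it holds a complete cAMP response element, TGACGTCA, the motif of CREB and the element known to drive this gene. The match, in capitals, begins 79 bases upstream of the start, and the sequence is written 5′ to 3′.
VGF: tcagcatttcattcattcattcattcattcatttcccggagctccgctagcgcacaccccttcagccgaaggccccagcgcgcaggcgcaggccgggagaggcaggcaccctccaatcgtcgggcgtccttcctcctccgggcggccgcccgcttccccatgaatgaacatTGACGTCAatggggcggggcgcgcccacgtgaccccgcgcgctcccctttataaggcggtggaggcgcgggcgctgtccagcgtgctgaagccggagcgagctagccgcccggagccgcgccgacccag
TGACGTCA is its own reverse complement, and 1.85% of all windows hold it. No other of the 19 member windows did, including those of BDNF.

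The 3 compounds were compared at the same dose, 400 nM, in 6 pairs, 3 without and 3 with E2. Without E2, BDNF was the only member called between ketamine and both of its metabolites. Its level was 0.65 higher on the log2 scale with ketamine than with 2R6R-HNK (SE 0.0564, adjusted p = 6.18e-14) and 0.44 higher than with 2S6S-HNK (SE 0.0564, adjusted p = 6.12e-09), and the libraries of the compared conditions did not overlap. After GC and length correction these differences were 0.54 and 0.37, and both were called. Of the 6 members 2 differed between ketamine and 2R6R-HNK, where 45.4% of all tested genes were called, the other being SORT1, 0.43 higher with ketamine (SE 0.0315, adjusted p = 3.72e-16). Between ketamine and 2S6S-HNK only BDNF was called, with 46.1% of genes called. SORT1 then differed by 0.03, with a 95% interval from -0.03 to 0.09, and GDNF by 0.14, with an interval from -0.02 to 0.30. The correction added 2 calls, NGFR at 0.53 between ketamine and 2R6R-HNK (adjusted p = 0.0442) and GDNF at 0.20 between ketamine and 2S6S-HNK (adjusted p = 0.0390).

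The HNKs differ from each other only in handedness. Between 2R6R-HNK and 2S6S-HNK 4 of 6 members were called, with 43.5% of genes called. BDNF was lower with 2R6R-HNK by a log2 difference of -0.21 (SE 0.0596, adjusted p = 0.00268), SORT1 by -0.40 (SE 0.0320, adjusted p = 8.05e-15) and NTF3 by -0.84 (SE 0.284, adjusted p = 0.0140). GDNF was higher with 2R6R-HNK by 0.27 (SE 0.0829, adjusted p = 0.00614). All 4 differences were called after GC and length correction too, but 3 of them were lost when a single library was left out. The BDNF difference was -0.18 without 2R6R-HNK replicate 1 (adjusted p = 0.0530). That of NTF3 was -0.74 without 2R6R-HNK replicate 2 and -0.81 without 2S6S-HNK replicate 1 (adjusted p = 0.0887 and 0.0603), and that of GDNF 0.23 without replicate 2 of either condition (adjusted p = 0.0635 and 0.0803). NGFR differed by -0.34 and VGF by 0.25, with 95% intervals from -0.79 to 0.11 and from -0.28 to 0.79, both wide enough to hold a difference of the size seen for SORT1.

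With E2 present, 5 of 6 members differed between ketamine and 2R6R-HNK, with 52.0% of genes called. GDNF was 0.61 higher with E2+ketamine (adjusted p = 8.14e-09), BDNF 0.33 higher (adjusted p = 2.59e-06) and VGF 0.79 higher (adjusted p = 0.00711), whereas SORT1 differed by -0.39 (adjusted p = 3.77e-15) and NTF3 by -0.65 (adjusted p = 0.0499). The NTF3 difference was not called by DESeq2, at -0.63 (adjusted p = 0.135), or with RLE size factors, at -0.63 (adjusted p = 0.0605). Nor was it called with a replicate block, at -0.65 (adjusted p = 0.0564). The VGF difference was not called after GC and length correction, at 0.49 (adjusted p = 0.0996), and that of NGFR then was, at -0.54 (adjusted p = 0.0321). Without E2+ketamine replicate 2 the VGF difference was 0.50 (adjusted p = 0.199) and the NTF3 difference -0.44 (adjusted p = 0.324), and without E2+2R6R-HNK replicate 2 they were 0.73 (adjusted p = 0.0550) and -0.45 (adjusted p = 0.320). Between E2+ketamine and E2+2S6S-HNK GDNF was 0.56 higher (adjusted p = 2.91e-08), VGF 0.84 higher (adjusted p = 0.00307) and SORT1 differed by -0.53 (adjusted p = 2.26e-20), with 66.8% of genes called. The VGF difference was 0.55 without E2+ketamine replicate 2 (adjusted p = 0.124) and 0.61 without E2+2S6S-HNK replicate 1 (adjusted p = 0.0832). The correction left VGF at 0.20, not called, and BDNF, at 0.05 before it with an interval from -0.06 to 0.17, was then called at 0.24 (adjusted p = 0.000148). Between the 2 HNKs with E2, 54.0% of genes were called. BDNF differed by -0.28 (adjusted p = 3.51e-05), SORT1 by -0.13 (adjusted p = 0.000193) and NGFR by 0.69 (adjusted p = 0.00606), the last not called after the correction, at 0.38, or without E2+2R6R-HNK replicate 1, at 0.57 (adjusted p = 0.0701). The SORT1 difference between ketamine and 2R6R-HNK thus had opposite signs without and with E2.

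**Figure D3:**
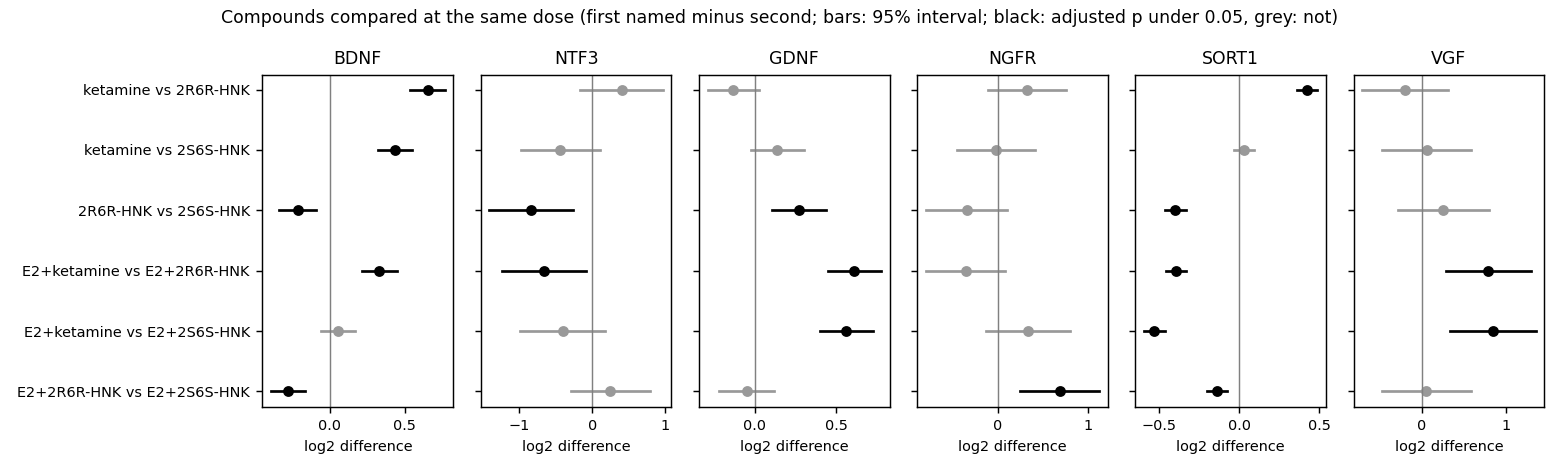
Log2 difference between compounds at 400 nM (horizontal axes, each gene on its own scale) for the 6 tested genes and 6 pairs, first named minus second, with 95% intervals and with grey marks where the adjusted p was 0.05 or more. BDNF is higher with ketamine than with either HNK when E2 is absent, by 0.65 and 0.44, and the SORT1 difference between ketamine and 2R6R-HNK changes side with E2.

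Whether E2 altered the effect of a drug was tested as the difference between the drug's effect in the presence of E2 and its effect in its absence. For SORT1 the direction of the HNK effects turned in the counts as deposited. 2R6R-HNK took it from 165 and 169 CPM down to 115 and 113 CPM without E2, but from 134 and 134 CPM in E2 alone to 157 and 151 CPM with E2. 2S6S-HNK likewise had lower levels than vehicle and higher levels than E2 alone, but its value against vehicle was 0.02 (adjusted p = 0.496) after GC and length correction, so for this drug the turn was not kept. The difference of effects was 0.75 for 2R6R-HNK (SE 0.0447, adjusted p = 6.72e-20) and 0.49 for 2S6S-HNK (SE 0.0445, adjusted p = 6.44e-14), and 0.52 and 0.27 after GC and length correction, both still called. For ketamine it was -0.07 (SE 0.0447, adjusted p = 0.257), though with upper-quartile scaling it was called at -0.15 (adjusted p = 0.00526).

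For BDNF the effect of 2R6R-HNK was 0.40 higher with E2 than without (SE 0.0821, adjusted p = 3.40e-05) and that of 2S6S-HNK 0.47 higher (SE 0.0815, adjusted p = 1.70e-06), while that of ketamine differed by 0.08 (SE 0.0799, adjusted p = 0.463), with a 95% interval from -0.08 to 0.24. After the correction the 2R6R-HNK value was 0.18 (adjusted p = 0.0673) and the 2S6S-HNK value 0.23 (adjusted p = 0.0137). For GDNF the effect of ketamine was 0.35 higher with E2 (SE 0.111, adjusted p = 0.00991), and that of 2R6R-HNK differed by -0.40 (SE 0.113, adjusted p = 0.00238). The GDNF value for ketamine was 0.27 without E2 replicate 1 and 0.20 without vehicle replicate 2, and that for 2R6R-HNK -0.26 without vehicle replicate 1, none of them called. VGF differed by -0.99 for 2R6R-HNK (adjusted p = 0.0187) and NGFR by -0.80 for 2S6S-HNK (adjusted p = 0.0317), and neither was called after the correction. In these tests 1 of the 6 members was called for ketamine beside 37.5% of all genes. For 2R6R-HNK 4 members were called beside 56.6% of genes, and the 2S6S-HNK test called 3 beside 65.1%.

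**Figure D4:**
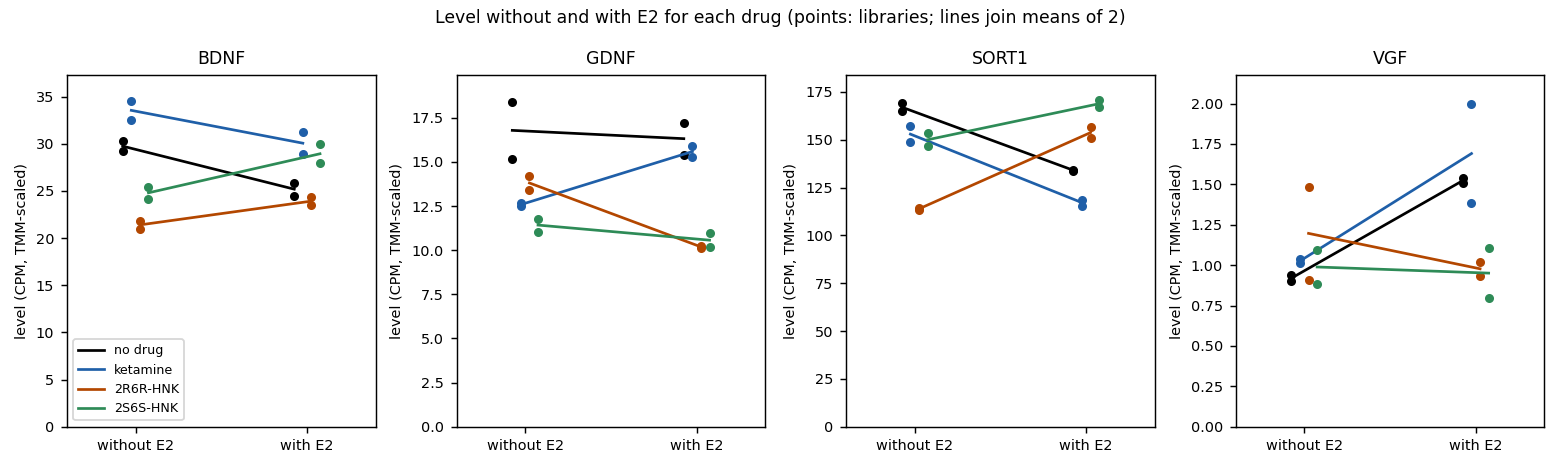
Level in CPM after TMM scaling (vertical axes, from 0) of BDNF, GDNF, SORT1 and VGF without and with E2, for no drug and the 3 drugs, with points for libraries and lines joining the means of 2. SORT1 drops with E2 in vehicle and ketamine and climbs with E2 in both HNKs, and GDNF with ketamine is at 12.5 to 12.7 CPM without E2 and 15.3 to 15.9 CPM with it.

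Each gene had its own order of conditions. BDNF ran from ketamine, with E2+ketamine, vehicle and E2+2S6S-HNK following and overlapping each other, through E2, 2S6S-HNK and E2+2R6R-HNK, neighbours among which E2 overlapped 2S6S-HNK and 2S6S-HNK overlapped E2+2R6R-HNK, down to 2R6R-HNK, which overlapped none. GDNF ran from vehicle, E2 and E2+ketamine, which overlapped, through 2R6R-HNK, ketamine and 2S6S-HNK, each clear of the next, to the overlapping E2+2S6S-HNK and E2+2R6R-HNK. For NTF3, neighbours among the 6 highest conditions overlapped. Over the 16 libraries, which share 8 condition means, the genes whose log2 CPM followed BDNF most closely among 10373 were NTN4 (Pearson r = 0.865), the guidance cue netrin-4, SFRP1 (r = 0.851), a secreted Wnt antagonist, and FAM129A (r = 0.848). After GC and length correction their r was 0.756, 0.641 and 0.821, and 3 other genes, LIMA1, CEMP1 and UXS1, came first, at 0.887 to 0.841.

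The gene lists that follow stand beside all tested genes, of which 24.0% to 34.3% were called higher and 32.5% to 37.4% lower in a treatment. These shares were 17.9% to 29.4% and 19.8% to 29.9% after GC and length correction, lower in each treatment except for the genes higher with E2+2S6S-HNK (26.4% from 24.0%). With lists this short, nothing particular to a list is read from its counts. The changes given for single listed genes are from the counts as deposited, and their corrected values are not reported here. SORCS2 and SORL1, relatives of sortilin, rose by 0.91 and 0.79 with ketamine (adjusted p = 0.00147 and 1.04e-05). In a list of the GDNF family that also held CDNF and MANF, 7 of 11 genes were tested, with 2 to 4 higher and 1 to 2 lower in each treatment. MANF was among the lower genes in all 7 treatments, and GFRA1 was lower in 4 and higher in 3. After GC and length correction no gene of this list was higher with E2 (from 3) or 2R6R-HNK (from 2). NRTN, the ligand neurturin, rose by 1.98 with ketamine (adjusted p = 1.68e-07) and GFRA3, the artemin co-receptor, by 0.89 (adjusted p = 3.84e-07), while GDNF itself fell.

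Genes for the handling of proneurotrophins showed 2 to 5 rises and 0 to 2 falls among 9 tested of 14, and 2 to 3 rises and 1 to 3 falls after GC and length correction. With 2S6S-HNK, CPE, a sorting receptor and carboxypeptidase for proneurotrophins, rose by 0.74 (adjusted p = 1.18e-16). FURIN, a protease that cuts proBDNF, rose by 0.35 with E2 (adjusted p = 3.07e-10). Of the 24 Trk adaptors and kinases, all tested, 9 to 14 rose and 8 to 10 fell in each treatment, with list medians from -0.05 to 0.30. After the correction 6 to 11 rose and 4 to 11 fell, with medians from -0.03 to 0.05. Among them SHC2, an adaptor, rose by 1.49 and KIDINS220, a scaffold of Trk receptors, fell by 1.22 with 2S6S-HNK (adjusted p = 1.18e-17 and 3.41e-28). The 15 partners of p75NTR had 4 to 8 rises and 5 to 8 falls, and 4 to 7 and 4 to 6 after the correction, for instance MAGED1, which binds p75NTR, at 0.75 and RIPK2 at -0.67 with 2S6S-HNK (adjusted p = 2.94e-32 and 4.48e-08).

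Of the 16 regulators of BDNF transcription 5 to 9 rose and 4 to 6 fell in each treatment, with list medians of 0.05 to 0.30. CRTC1, a coactivator of CREB, rose by 0.63 and REST, a repressor of neuronal genes, fell by 0.52 with ketamine (adjusted p = 2.24e-11 and 1.93e-12). CREB1 itself fell by 0.64 with E2 (adjusted p = 1.69e-16). With E2, 8 regulators were higher and 5 lower in the counts as deposited, and 4 and 2 after GC and length correction. After GC and length correction the counts of the regulators were 4 to 7 rises and 1 to 4 falls, with list medians of 0.04 to 0.11. Of 11 granins and other dense-core granule cargo genes, the company of VGF, only 4 were tested, and at most 1 rose and 1 fell in any treatment. PCSK1N rose by 0.52 with E2 and 0.95 with E2+ketamine (adjusted p = 3.51e-06 and 2.80e-13) and was called higher in 6 of the 7 treatments, 4 of them without a VGF call, and after the correction none of the granule genes rose in any treatment. Over all tested genes the median log2 fold change against vehicle lay between -0.0643 and -0.00268.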

How the data were processed

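RNA from 16 HMC3 samples was amplified and sequenced by the authors. The authors deposited unnormalized counts, 1 value a gene and library. The submitters' processing notes name the build hg19, TopHat2 2.0.14, Bowtie2 2.2.6 and featureCounts 1.4.6, and the strandedness of the counting is not given in the sources used here.

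The counts of 25370 genes were filtered with filterByExpr, which kept 16004, and scaled by TMM in R 4.3.3 with edgeR 4.0.16. A single quasi-likelihood fit with 8 condition means on all 16 libraries gave every comparison, with Benjamini-Hochberg adjustment over the tested genes of each, as a log2 fold change with its standard error (SE). Calls needed an adjusted p under 0.05. The 95% intervals are not adjusted. The coefficient of variation common to all genes was 2.81%. An exact permutation test of 2 against 2 libraries cannot go below p = 0.333 and was not used. Total counts were 55300614 to 81646165 a library, so that 3 counts equal 0.0350 to 0.0547 CPM. Exon lengths, GC content and GRCh37 positions came from GENCODE v44lift37. Of the table's symbols 21539 matched directly and 1493 by an older symbol, and 95.9% of tested genes had a GC value. The GC and length correction fitted a loess curve (span 0.5) in each library.

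The 8 members and the gene lists were chosen with earlier results of these data known. All members are described, and of each list at most the 2 called genes with the largest change in the comparison described, with a mean of at least 1 CPM. Some listed genes are not reported here. The genes most like BDNF were ranked among those with a mean of at least 5 CPM, with a prior count of 2. Alternatives were DESeq2 1.42.0, only the groups compared, other filters and scalings, halved counts, a replicate block, the correction, and leaving out each library. The test was checked on simulated counts with known changes.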

Additional observations from a re-analysis of the deposited data

Results flagged for a closer look

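In 8 cases the effect of a drug on a member differed between cells with and without E2, by a test of that difference (edgeR's quasi-likelihood interaction term). The same tests called 37.5% of all tested genes for ketamine, 56.6% for 2R6R-HNK and 65.1% for 2S6S-HNK. After GC and length correction they called 19.7% higher and 14.8% lower for ketamine. The corrected shares were 21.9% and 21.6% for 2R6R-HNK and 19.1% and 20.7% for 2S6S-HNK. The explanations for these differences were not tested.

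For SORT1, the drug effect was higher with E2 by 0.75 on the log2 scale for 2R6R-HNK and by 0.49 for 2S6S-HNK. For BDNF it was higher with E2 by 0.40 for 2R6R-HNK and by 0.47 for 2S6S-HNK. For GDNF it was higher by 0.35 for ketamine and differed by -0.40 for 2R6R-HNK. VGF differed by -0.99 for 2R6R-HNK and NGFR by -0.80 for 2S6S-HNK, both at about 1 to 2 CPM. The correction for GC content and length left 3 of the 8 differences uncalled, namely BDNF for 2R6R-HNK at 0.18 (adjusted p = 0.0673), VGF at -0.39 (adjusted p = 0.431) and NGFR at -0.07 (adjusted p = 0.889). VGF kept no call without 2R6R-HNK replicate 2 (-0.62) or E2+2R6R-HNK replicate 2 (-0.93), and NGFR none without 2S6S-HNK replicate 2 (-0.46), E2 replicate 2 (-0.76), E2+2S6S-HNK replicate 2 (-0.75) or vehicle replicate 1 (-0.68). GDNF likewise kept no call for ketamine without E2 replicate 1 (0.27) or vehicle replicate 2 (0.20), nor for 2R6R-HNK without vehicle replicate 1 (-0.26). No member was checked for a lone outlying library, since conditions held 2 libraries.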

How the results depend on the processing

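The number of members called stayed within 1.5 times its reported value in all 16 comparisons under DESeq2, a fit of the compared groups only, no filter, a minimum of 10 counts in every library, RLE or upper-quartile scaling, halved counts and the replicate block. GC and length correction moved it, with or without the replicate block, from 5 to 2 for 2S6S-HNK and from 3 to 1 for E2. The number also went from 5 to 3 for E2+2R6R-HNK and for ketamine. It went from 4 to 2 for the difference of 2R6R-HNK effects by E2, and from 1 to 2 for ketamine against 2S6S-HNK. Of all tested genes, the correction left 28.0% called higher and 28.4% lower for 2S6S-HNK, and 17.9% and 19.8% for E2. These shares were 29.4% and 29.9% for E2+2R6R-HNK and 22.5% and 25.3% for ketamine. They were 21.9% and 21.6% for the difference of 2R6R-HNK effects and 19.6% and 21.6% for ketamine against 2S6S-HNK. Among values called before it, the correction turned the sign of NGFR and VGF with E2+ketamine, to -0.2077 and -0.08512 (-0.2073 and -0.09312 with the block), and of SORT1 with 2S6S-HNK and E2+2R6R-HNK, to 0.02285 and 0.03965 (0.02279 and 0.03951 with the block), none of them called. Leaving out 1 library gave 2 to 5 members for ketamine, 1 to 2 for E2+2S6S-HNK, 2 to 3 for 2R6R-HNK against 2S6S-HNK (4 with all libraries; 2 without 2R6R-HNK replicate 2), 3 to 5 for E2+ketamine against E2+2R6R-HNK (3 without replicate 2 of either) and 0 to 1 for the difference of ketamine effects by E2. A left-out library leaves its condition with 1, assumed to vary like the others. Among 96 member fold changes the direction and call held in 93 under DESeq2, 89 under upper-quartile scaling, 95 under halved counts, 95 under the replicate block and 72 under the correction. Upper-quartile scaling ended the SORT1 calls for ketamine (-0.04) and E2+2R6R-HNK (-0.04) and, in the differences by E2, that of GDNF with ketamine (0.26, adjusted p = 0.0567), and added SORT1 with ketamine (-0.15, adjusted p = 0.00526). Against vehicle it added SORT1 with E2+2S6S-HNK (0.12) and NTF3 with 2R6R-HNK and E2+ketamine (both 0.71). DESeq2 and halved counts ended the NGFR call for E2+ketamine (adjusted p = 0.0557 and 0.0511), and DESeq2 the NGFR difference by E2 for 2S6S-HNK (adjusted p = 0.0542). The replicate block ended only the NTF3 call between E2+ketamine and E2+2R6R-HNK (-0.65, adjusted p = 0.0564), and so did DESeq2 and RLE scaling. The deviations of same-numbered libraries had correlations from -0.0258 to 0.0451, and the labels do not say whether such libraries shared a culture or a batch. The causes of these changes were not tested. Depth limits NTRK2 and NTRK3, which could not be tested, and leaves NTF3, NGFR and VGF with SEs of at least 0.213 on the log2 scale.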
